A study of Homo sapiens with 3 samples.

Results

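The 10 non-coding snoRNA host genes GAS5, SNHG1, SNHG5, SNHG6, SNHG7, SNHG8, SNHG12, SNHG15, SNHG16 and ZFAS1 were followed through a table of raw RNA sequencing counts. They were taken from a list of symbols by matching the Ensembl IDs of the table, without their versions, to GENCODE release 29. All 10 were present among 15808 genes. The libraries came from OCI-Ly10, an established human diffuse large B cell lymphoma line, exposed for 6 h to MZ1, a degrader that links a BET bromodomain ligand to a ligand of the VHL ubiquitin ligase. The 3 libraries form 1 group: every one was treated, the sources used here give no dose, and neither untreated cells nor any other line or time point was analysed here. The values are therefore levels under MZ1 and their spread between libraries, not effects of MZ1. Nothing in the labels states that the replicates were grown separately, so each p-value speaks of the spread among these 3 samples, which may be technical. In bulk RNA, fewer cells making an RNA and less of it per cell cannot be told apart.

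Small nucleolar RNAs (snoRNAs) guide chemical changes of ribosomal and spliceosomal RNA. Those of the box C/D class direct ribose methylation and those of the box H/ACA class direct pseudouridylation. In humans most are cut from the introns of longer host transcripts. In a non-coding host the spliced exons carry no long reading frame. Such transcripts often begin, like the mRNAs of ribosomal proteins, with a terminal oligopyrimidine (TOP) tract, and several are known to be removed by nonsense-mediated decay (NMD) when ribosomes engage them. The level of the spliced host RNA and the output of its snoRNAs are thus separate quantities, and the counts bear on the first.

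RefSeq placed 36 snoRNAs inside the 10 genes. SNHG1 held 8 box C/D snoRNAs, SNHG16 and ZFAS1 held 3 each, SNHG5 held 2 and SNHG6 held 1. SNHG7 held 2 box H/ACA snoRNAs, and SNHG8 and SNHG15 held 1 each. GAS5 held 11, of which 10 were box C/D, and SNHG12 held 3 box H/ACA and 1 box C/D. The sequences of 6 of these snoRNAs, from GENCODE transcripts on GRCh38, are shown because they are what the host introns carry. Capitals mark the C box (TGATGA, or GATGA in SNORD99) and the last CTGA, the D box, of the box C/D snoRNAs, and the ACA that lies 3 bases from the 3′ end of the box H/ACA snoRNAs.
SNORD25 of SNHG1 (chr11:62855564-62855632, minus strand): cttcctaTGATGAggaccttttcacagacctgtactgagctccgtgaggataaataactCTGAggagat
SNORD50B of SNHG5 (chr6:85677589-85677658, minus strand): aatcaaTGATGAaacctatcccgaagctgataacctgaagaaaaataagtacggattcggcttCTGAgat
SNORD12B of ZFAS1 (chr20:49280319-49280409, plus strand): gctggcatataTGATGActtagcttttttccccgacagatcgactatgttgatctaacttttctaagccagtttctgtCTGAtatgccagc
SNORD99 of SNHG12 (chr1:28578749-28578822, minus strand): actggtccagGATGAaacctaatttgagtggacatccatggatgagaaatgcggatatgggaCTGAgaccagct
SNORA24 of SNHG8 (chr4:118279190-118279320, plus strand): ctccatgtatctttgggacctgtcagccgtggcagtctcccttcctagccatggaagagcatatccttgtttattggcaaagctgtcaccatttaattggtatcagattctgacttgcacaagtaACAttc
SNORA9 of SNHG15 (chr7:44985378-44985510, minus strand): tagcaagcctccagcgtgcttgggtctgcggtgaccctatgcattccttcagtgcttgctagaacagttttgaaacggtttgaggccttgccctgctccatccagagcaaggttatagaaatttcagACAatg

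SNORD99 and SNORD12B also had a row of their own in the table. SNORD99 had 2, 3 and 3 counts in replicates 1, 2 and 3, and SNORD12B had 3, 1 and 1. At no more than 3 counts in any library these rows say little of the level of either snoRNA. The 23 snoRNA rows of the table together took 0.00316%, 0.00173% and 0.0016% of the counts.

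The starts of the host genes shared sequence features that the choice of genes did not use. The RefSeq promoter table (GRCh38.p14) held 8 of the 10, all but SNHG6 and SNHG15, and the 40 bases before and 10 bases from each start are shown because they carry these features. Capitals mark TATAA in the first 30 bases of the window and any run of at least 6 pyrimidines (C or T only) that reaches within 10 bases before the start or beyond it.
GAS5 (chr1:173869036-173869085, minus strand): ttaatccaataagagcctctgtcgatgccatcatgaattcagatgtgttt
SNHG1 (chr11:62855876-62855925, minus strand): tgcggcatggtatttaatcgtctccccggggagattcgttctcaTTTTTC
SNHG5 (chr6:85678724-85678773, minus strand): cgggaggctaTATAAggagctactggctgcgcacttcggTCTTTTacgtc
SNHG7 (chr9:136728175-136728224, minus strand): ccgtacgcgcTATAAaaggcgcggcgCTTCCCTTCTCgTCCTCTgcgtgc
SNHG8 (chr4:118278722-118278771, plus strand): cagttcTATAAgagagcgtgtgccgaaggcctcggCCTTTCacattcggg
SNHG12 (chr1:28581864-28581913, minus strand): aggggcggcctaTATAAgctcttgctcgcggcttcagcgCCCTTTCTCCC
SNHG16 (chr17:76557724-76557773, plus strand): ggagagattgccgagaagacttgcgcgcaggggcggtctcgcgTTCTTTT
ZFAS1 (chr20:49278602-49278651, plus strand): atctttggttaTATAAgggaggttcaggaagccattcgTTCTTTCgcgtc

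TATAA stood on the transcribed strand in 5 of these 8 windows (62.5%), in each case 28 to 34 bases before the start, against 4.06% of all 35116 promoters. With the other strand included, the tallies were 5 of 8 and 5% of all promoters. A pyrimidine run was found in 7 of 8 (87.5%), against 27.4% of all promoters. SNHG7 and SNHG12 had the longest runs, of 11 pyrimidines. The GAS5 window showed neither feature, and its RefSeq start lies 163 bases upstream of the outermost GENCODE start. The same offset was -1259 bases for SNHG12 and -464 bases for ZFAS1, whose RefSeq starts lie downstream. These matches are descriptions of the sequence and not evidence of a factor or of the start used in these cells.

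The libraries were uneven in ways that touch these genes. Summed counts came to 5474462 in replicate 1, 1441246 in replicate 2 and 1314812 in replicate 3. On the CPM scale (counts per 1000000 of the library size after TMM scaling) a single read equals 0.20, 0.629 and 0.767, respectively. Genes annotated as antisense took 0.251% of counts in replicate 1 but 2.04% and 2.09% in replicates 2 and 3, and ribosomal protein genes took 16.2%, 8.81% and 14.0%. Replicate 2 was low for GC-rich genes, with a median difference of replicate 1 minus 2 of 1.37 (log2) in the most GC-rich of 8 bins and -0.32 in the least. All 6 B cell markers reached at least 1 CPM in every library. By the chi-square test described with the pairs of libraries, 6 of 6 were higher in replicate 1 than in replicate 2. Over all genes 32.8% of 10488 were called in that direction. The markers had a median GC content of 57.2%, and the GC bin with a median of 56.0% had a median difference of 0.78. The part of GC content in these calls was not tested. Of 5 T cell markers 1 had a row, CD2 with 7, 0 and 0 counts, and of 5 myeloid markers LYZ and CSF1R had rows, with summed levels of 4.60 to 8.20 CPM.

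As a group the host genes were abundant for non-coding RNA. They took 11126, 2049 and 2909 counts, or 0.203% (exact Clopper-Pearson 95% interval 0.199 to 0.207%), 0.142% (0.136 to 0.148%) and 0.221% (0.213 to 0.229%) of the libraries. Counting error is all that these intervals cover, because PCR copies cannot be recognised without molecular identifiers. The summed level was 2224, 1288 and 2232 CPM, a mean of 1915 ± 543 (SD, n = 3), so replicate 2 lay below the others. The median member had 125 CPM, against 13.7 CPM for the 13174 genes whose mean reached 1 CPM. Without replicate 1, which stood apart in antisense counts, the summed level was 1826 CPM and the median member had 129 CPM. All 10 reached 1 CPM in every library, as did 68% of the genes in the table. Among 2365 long non-coding RNA genes in the table, 5 of the 10 ranked within the first 20 by mean CPM, with SNHG5 in place 5, SNHG6 in place 6, GAS5 in place 7, SNHG1 in place 10 and ZFAS1 in place 15. The 10 genes held 16.6% of all long non-coding RNA counts in replicate 1 but 4.05% and 6.66% in replicates 2 and 3. The long non-coding total includes genes annotated as antisense, SNHG7, SNHG12 and ZFAS1 among them, and the share of antisense genes was lower in replicate 1. Its part in these percentages was not tested, and the members' summed CPM in replicates 1 and 3 were nearly equal.

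**Figure D1:**
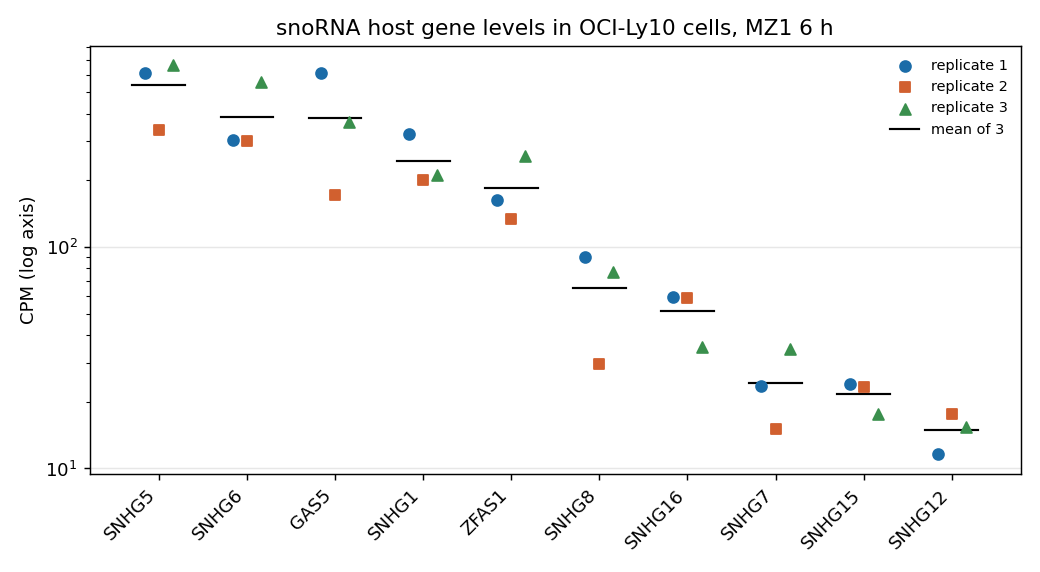
CPM of the 10 host genes on a log axis, with 1 symbol per replicate and a bar at the mean of 3. SNHG5 had the highest mean at 537 CPM and SNHG12 the lowest at 14.8 CPM, and 7 of the 10 genes were lowest in replicate 2.

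The box C/D hosts supplied most of this RNA. SNHG5 (ENSG00000203875.9, chromosome 6, 85660950 to 85678748, minus strand) hosts the U50 snoRNAs and was first described at a translocation breakpoint in a B cell lymphoma. It had 613, 337 and 660.5 CPM in replicates 1, 2 and 3, a mean of 537 ± 175 CPM (SD, n = 3). Replicate 2 was the low library, and replicates 1 and 3 did not differ by the chi-square test (adjusted p = 0.0992). SNHG5 alone made up 28.0% of the members' mean level.

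SNHG6 (ENSG00000245910.7, chromosome 8, 66921684 to 66926398, minus strand), host of SNORD87, had 304, 302 and 555 CPM, with a mean of 387 ± 145 CPM (SD, n = 3). Replicates 1 and 2 were nearly equal and replicate 3 stood above both (adjusted p = 5.92e-40 against replicate 1 and 4.07e-24 against replicate 2, chi-square test). Its exons overlap 365 bases of exons of MCMDC2 on the opposite strand. MCMDC2, a gene related to the MCM helicase family, had 1, 47 and 54 counts, so it was nearly unseen in replicate 1 only. The sources used here do not say how strand was treated in counting, so reads of these 2 genes cannot be told apart where they overlap, and the part of MCMDC2 in the SNHG6 values was not tested.

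GAS5 (ENSG00000234741.6, chromosome 1, 173863900 to 173868882, minus strand) is named for its accumulation in growth-arrested cells and is a known TOP and NMD-sensitive transcript. It had 612, 171 and 368 CPM, with a mean of 384 ± 221 CPM (SD, n = 3). The 3 libraries were spread widely, and replicate 1 was 3.58-fold above replicate 2 and 1.66-fold above replicate 3. All 3 pairs differed by the chi-square test (adjusted p = 2.62e-101 for replicates 1 and 2, 2.58e-24 for 1 and 3, and 1.77e-23 for 2 and 3). Its share of the members' sum was 27.5% in replicate 1 and 13.3% and 16.5% in replicates 2 and 3.

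SNHG1 (ENSG00000255717.5, chromosome 11, 62851988 to 62855914, minus strand), host of the U22 cluster, had 323, 199.9 and 212 CPM, a mean of 245 ± 68.1 CPM (SD, n = 3). Replicate 1 was high, by 1.62-fold over replicate 2, while replicates 2 and 3 did not differ by the test (adjusted p = 0.632). ZFAS1 (ENSG00000177410.11, chromosome 20, 49278178 to 49295738, plus strand) lies antisense to the start of ZNFX1 and hosts the SNORD12 genes. It had 163, 134 and 257 CPM, a mean of 185 ± 64.3 CPM (SD, n = 3), with replicate 3 above both others. ZNFX1 overlaps it by 249 bases of exon on the opposite strand and had 79.0, 103 and 78.2 CPM, highest in replicate 2, where ZFAS1 was lowest. SNHG16 (ENSG00000163597.13, chromosome 17, 76557766 to 76565348, plus strand), also known from aggressive neuroblastoma, had 59.2, 59.1 and 35.3 CPM, a mean of 51.2 ± 13.8 CPM (SD, n = 3). Here replicate 3 was the low library, the reverse of SNHG5, SNHG6 and ZFAS1.

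Of the hosts with only box H/ACA snoRNAs, SNHG8 had the highest mean CPM, above that of the box C/D host SNHG16. In replicate 2 the order was reversed, with 29.5 CPM for SNHG8 and 59.1 CPM for SNHG16. SNHG8 (ENSG00000269893.5, chromosome 4, 118278709 to 118279823, plus strand) had 90.4, 29.5 and 76.7 CPM, a mean of 65.5 ± 31.9 CPM (SD, n = 3). Its level in replicate 2 stood apart, 3.06-fold below replicate 1, and replicates 1 and 3 did not differ by the test (adjusted p = 0.225). SNHG7 (ENSG00000233016.5, chromosome 9, 136721366 to 136728184, minus strand) had 23.6, 15.1 and 34.5 CPM from 118, 24 and 45 counts, a mean of 24.4 ± 9.74 CPM (SD, n = 3), lowest in replicate 2. It has the highest GC content of the 10, at 65.9%. SNHG15 (ENSG00000232956.7, chromosome 7, 44983023 to 44986961, minus strand) had 24.0, 23.3 and 17.6 CPM from 120, 37 and 23 counts, a mean of 21.6 ± 3.47 CPM (SD, n = 3). SNHG12, with both kinds of snoRNA (ENSG00000197989.12, chromosome 1, 28578538 to 28583132, minus strand), had 11.6, 17.6 and 15.3 CPM from 58, 28 and 20 counts, a mean of 14.8 ± 3.03 CPM (SD, n = 3). SNHG15 and SNHG12 had the smallest ranges between libraries in TMM-scaled CPM, 1.36-fold and 1.52-fold. For SNHG12 this depended on the scaling, since it varied with GC adjustment (adjusted p = 1.26e-04, chi-square test).

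CPM do not correct for length, so the order of the genes was taken per kb of merged GENCODE exons. SNHG6 led with 310.2 CPM per kb (244, 242 and 445 in replicates 1, 2 and 3), followed by SNHG5 at 191, GAS5 at 106, ZFAS1 at 82.4, SNHG8 at 71.0 and SNHG1 at 65.2 CPM per kb. A gap followed. SNHG16 had 9.55, SNHG15 5.93, SNHG7 5.62 and SNHG12 3.48 CPM per kb. The median was 68.1 CPM per kb, against 3.15 for the genes whose mean reached 1 CPM. SNHG8 thus stood beside SNHG1 per length although its CPM were lower.

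Within libraries, 4 of the 9 steps between neighbours kept 1 sign in 3 of 3 libraries with a mean above the SD. SNHG6 lay above SNHG5 by 0.69 ± 0.47 (log2 ratio per kb, SD, n = 3) and SNHG5 above GAS5 by 0.97 ± 0.53. The step from SNHG1 to SNHG16 was 2.71 ± 0.43 and that from SNHG16 to SNHG15 was 0.62 ± 0.18. GAS5 and ZFAS1 (0.23 ± 0.85), ZFAS1 and SNHG8 (0.31 ± 0.67), SNHG8 and SNHG1 (0.01 ± 0.66), SNHG15 and SNHG7 (0.13 ± 0.74) and SNHG7 and SNHG12 (0.57 ± 0.69) did not differ beyond their spread. No step could pass 0.05, since the exact two-sided sign-flip permutation test allows no p under 0.25 with 3 libraries, and 0.562 was the smallest after adjustment over 9 pairs. Merged exons cover 95.6% of SNHG1, 92.8% of SNHG12 and 92.6% of SNHG15, so these lengths, summed over all isoforms, are upper estimates for the spliced RNA.

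**Figure D2:**
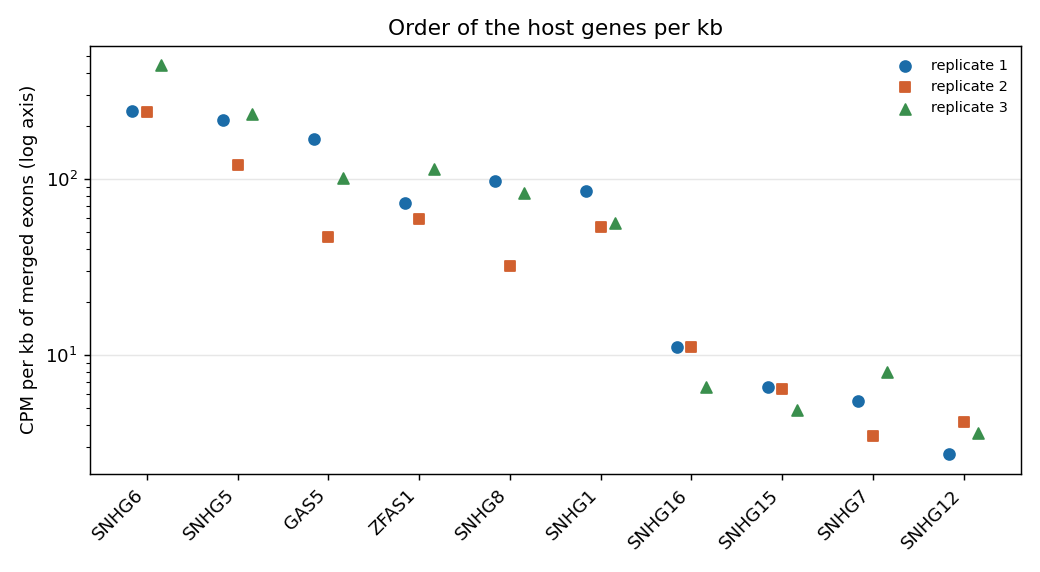
CPM per kb of merged exons on a log axis for the 10 host genes in order of their means, with 1 symbol per replicate. The first 6 genes sit at 32.0 CPM per kb or more in every library, the last 4 at 11.0 or less.

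When the 3 counts of each gene were set against equal expression in a chi-square test, adjusted over all genes averaging 10 counts or more, 8 of 10 host genes varied between libraries (adjusted p from 5.58e-114 for GAS5 to 0.00668 for SNHG16). The background was 67.2% of 10016 genes, so this share is near that of the table. SNHG12 (adjusted p = 0.202) and SNHG15 (adjusted p = 0.449) did not pass. The median SD of log2(CPM + 0.5) was 0.49 for the 10 genes and 0.53 for all genes tested. Without replicate 1, 7 of 10 varied against a background of 33.8%. The tally was 5 of 10 without replicate 2 (background 45.2%) and 5 of 10 without replicate 3 (background 56.2%).

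Replicates 2 and 3, of nearly equal depth, differed for most host genes. In replicate 2, 6 of 10 were lower than in replicate 3 by the chi-square test, against 21.1% of 8447 genes. These were GAS5, SNHG5, SNHG6, SNHG7, SNHG8 and ZFAS1, with log2 differences of replicate 2 minus 3 from -0.88 for SNHG6 to -1.36 for SNHG8. SNHG16 was higher in replicate 2, by 0.74 (log2, adjusted p = 0.0148), and 12.7% of genes were called in that direction. Neither share over all genes is matched to the level of the host genes, and the test calls more genes at higher counts. Among 3 libraries it called 51% of genes without a count minimum and 81.1% at a mean of at least 50 counts. The median difference over the 10 genes was -0.91, beside -0.09 for all genes tested. The 6 B cell markers had a median of -0.91, with 5 lower in replicate 2 and 0 higher. The markers had a median GC content of 57.2%, the 10 host genes 48.2%, and the markers were not set against GC bins. GC content moved with the difference between replicates 2 and 3 over the whole table. Measured against genes of their own GC bin, replicate 3 minus 2 had a median of 0.29 over the 10 genes and lay above 0 for 7. SNHG8 was at 1.32, GAS5 at 1.22, SNHG6 at 0.99 and SNHG5 at 0.93, while ZFAS1 was at 0.38 and the GC-rich SNHG7 at 0.14.

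With TMM scaling, the host genes called were all higher in replicate 1 than in replicate 2, but went both ways against replicate 3. Over replicate 2, GAS5, SNHG8, SNHG5, SNHG1 and ZFAS1 were higher, by 1.84, 1.60, 0.86, 0.69 and 0.29 (log2), and none was lower. The background was 32.8% higher and 23.3% lower of 10488 genes. The median over the 10 genes was 0.46, beside 0.17 for all genes tested. Against genes of their own GC bin it was 0.11, with 6 of 10 above 0, and SNHG7 turned from 0.63 to -0.74 and SNHG12 went from -0.58 to -1.36. With GC adjustment, 7 of 10 were called for this pair in place of 5, beside 48.4% of 10488 genes in place of 56.2%. The call for ZFAS1 ended with DESeq2 size factors and with column totals, and against its own GC bin ZFAS1 was lower in replicate 1, by -0.49. With column totals SNHG6 and SNHG12 were called lower in replicate 1. That scaling moves the median of all tested genes by -0.26 for replicate 1 minus 2, by -0.11 for replicate 1 minus 3 and by 0.15 for replicate 2 minus 3. Against replicate 3, GAS5, SNHG1 and SNHG16 were higher in replicate 1 and SNHG6 and ZFAS1 lower, beside 25.1% and 20.2% of 10388 genes. With column totals SNHG5 and SNHG7 were also called lower. The pairs share libraries, so their tallies are not independent.

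**Figure D3:**
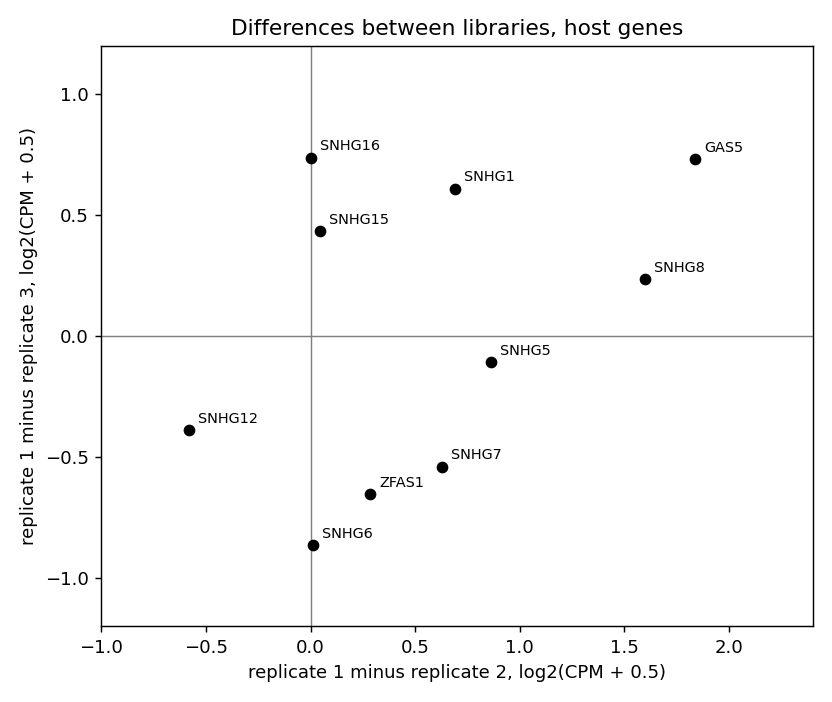
Difference of replicate 1 from replicate 2 (horizontal) and from replicate 3 (vertical) in log2(CPM + 0.5), 1 point per host gene, where both axes share replicate 1. GAS5 lies farthest to the right at 1.84, and SNHG6 lowest at -0.86 with almost no difference from replicate 2.

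Across libraries, 7 of 10 host genes were lowest in replicate 2 (40.5% of the 7510 genes of at least 10 CPM were), 5 were highest in replicate 1 (43.1%) and 4 in replicate 3 (28.2%). SNHG15 and SNHG16 were lowest in replicate 3 (25.5%) and SNHG12 was lowest in replicate 1 (34%) and highest in replicate 2 (28.7%). Among 2897 other genes of at least 50 CPM, those nearest to the members' median profile were DPF2, a subunit of a chromatin remodeller, STRAP, DAP3, a mitochondrial ribosomal protein, ATF4, a stress response factor, and KDM5C, a histone demethylase. Their root mean square distance in library-centred log2 values was 0.011 to 0.030. ATF4, for example, had 453, 296 and 468 CPM. With 3 libraries 93 genes lay within 0.1 of the profile, so such likeness is common.

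Neighbouring genes did not share one pattern with the hosts. SLC3A2, an amino acid transporter chain whose start lies 188 bases from that of SNHG1 on the opposite strand, had 80.4, 25.8 and 43.7 CPM, like SNHG1 highest in replicate 1 and lowest in replicate 2. ZBTB37, head to head with GAS5 at 800.0 bases, had 11.6, 33.9 and 12.3 CPM, highest in replicate 2, where GAS5 was lowest. These 2 neighbours were chosen by position after the values of the hosts were seen. TRNAU1AP, which overlaps SNHG12 by 8 exonic bases on the opposite strand, had 45.6, 49.7 and 46.8 CPM. FAM69B, opposite SNHG7, had 0, 2 and 3 counts. In all, 6 of 10 host genes had exons overlapping opposite-strand exons, as did 4280 of 9979 tested genes with a GENCODE match.

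Other non-coding hosts and protein-coding hosts were set beside the 10 genes. Of 14 other non-coding hosts in the table, 12 were tested and 6 varied among the libraries, where 67.2% of all genes did. LRRC75A-AS1, which was the highest, had 1274, 242 and 506 CPM, SNHG3 had 163, 198 and 321 and SNHG14 had 132, 151 and 102 CPM. SNHG25 was the lowest, with 23, 0 and 0 counts. Their median difference of replicate 2 minus 3 was -0.04. The 50 protein-coding hosts, mostly genes of ribosomal proteins and translation factors, had medians of 1325, 393 and 633 CPM, and 45 of 50 varied. RPL13A had 9270.0, 7189 and 14055 CPM and RPL3 5793, 1762 and 5076 CPM. EIF4A1 was the lowest, with 23, 5 and 6 counts. Whether so few counts reflect its RNA level or the way reads were assigned to genes was not tested. In replicate 2, 35 of 48 tested were lower than in replicate 3 and 6 were higher, with a median of -0.75, beside 21.1% lower and 12.7% higher over all genes. These shares over all genes are not matched in level, and the test calls more genes at higher counts. Values of ribosomal protein genes are uncertain, since their many pseudogenes can take up or lend reads.

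A list of TOP translation genes had a median of -0.72 for replicate 2 minus 3, with 11 of 15 lower in replicate 2 and 2 higher. Over all genes 21.1% were lower and 12.7% higher, shares that are not matched in level. GENCODE placed SNORA31 inside 1 gene of that list, TPT1. For replicate 1 minus 2 their median was 1.26 and that of the protein-coding hosts 0.92, beside 0.46 for the 10 non-coding hosts. These list medians are not adjusted for GC content. EEF1A1, an elongation factor, had 15029, 3329 and 5489 CPM. TPT1 went the other way, with 6643, 16597 and 14677 CPM, RPS6 had 6973, 6839 and 9685 CPM and EIF3F was the lowest at 310.1, 170 and 205 CPM. Long non-coding RNAs without snoRNAs had medians of the other sign, -0.74 for replicate 1 minus 2 and 0.43 for replicate 2 minus 3. The nuclear RNA MALAT1 had 2398, 4070 and 3016 CPM, NEAT1 335, 456 and 205 CPM and NORAD 160, 294 and 218 CPM, and FTX had 5, 3 and 3 counts. Differences between the lists were not tested.

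Genes whose proteins bind snoRNAs were expressed throughout. All 8 core genes of the snoRNA particles reached 1 CPM in every library, as did 68% of the genes in the table. Of these 8 genes 7 varied, beside 67.2% of all genes tested. FBL, the methyltransferase of box C/D particles, had 507, 965 and 823 CPM, lowest in replicate 1. NOP58 had 491, 585 and 797 CPM and NOP56, which is itself a snoRNA host, 436, 489 and 646 CPM. NOP10, a box H/ACA protein, was the lowest with 54.2, 22.0 and 59.1 CPM. Of 10 assembly factors 7 varied, near the share over all genes. NOLC1 had 381, 712 and 500.2 CPM, the helicase genes RUVBL2 and RUVBL1 had 346, 108 and 229 CPM and 151, 170 and 177 CPM, and SHQ1 had 9.40, 13.2 and 5.37 CPM. Their medians of replicate 2 minus 3 were -0.42 for core genes and 0.24 for assembly factors.

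All 14 genes of NMD and the exon junction complex reached 1 CPM in every library, and 11 of 14 varied. Over all genes these shares were 68% of the table and 67.2% of those tested. EIF4A3, which anchors the exon junction complex, had 301, 177 and 306 CPM, its partner RBM8A 182, 116 and 212 CPM, and UPF1, the central helicase of NMD, 135, 104 and 233 CPM. SMG9 was the lowest at 11.6, 8.80 and 7.67 CPM. The list's median difference of replicate 2 minus 3 was 0.03, and 4 of 14 genes were lower and 3 higher in replicate 2, beside 21.1% and 12.7% over all genes.

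**Figure D4:**
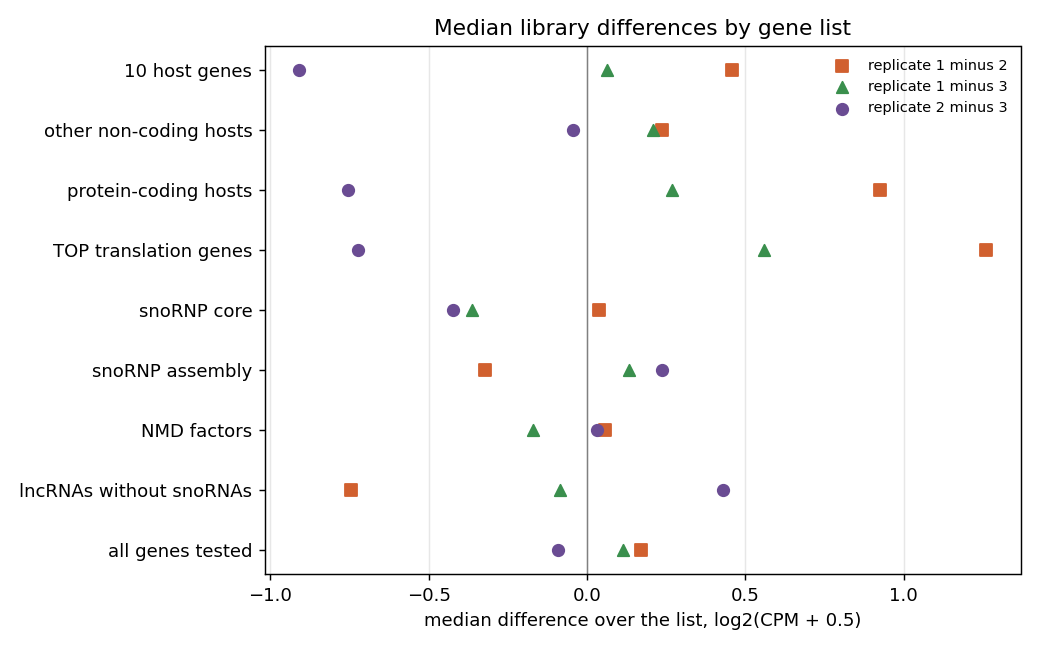
Median difference between pairs of libraries over each gene list, in log2(CPM + 0.5), with 1 symbol per pair and all genes tested in the last row. The 10 host genes have a median of -0.91 for replicate 2 minus 3, beside -0.75 for protein-coding hosts and -0.09 for all genes.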

How the data were processed

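RNA sequencing of 3 libraries of 1 group was used. The authors deposited raw counts per gene and, in a second table, log2 CPM for the same genes. STAR, edgeR and the hg38 build are named, per the submitters' processing notes. Tool versions, counting program, strandedness and gene models are not stated in the sources used here. Checked against the counts, the deposited log2 values are the logarithm of count divided by a constant of each library, with 0.452 CPM added, the constants being 0.663, 0.751 and 0.801 times the column totals. For scaling, TMM factors were computed (0.914, 1.10 and 0.991; edgeR 4.0.16, R 4.3.3) and differences are in log2(CPM + 0.5), which understates differences of low genes. Symbols, positions and exons came from GENCODE 29 on GRCh38, with 15668 IDs matched, and opposite-strand exons were found with pyranges 0.1.4.

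A chi-square test (scipy 1.17.1) compared counts with equal expression at TMM-scaled sizes, in genes averaging 10 counts or more. Values of p were adjusted over all genes by the Benjamini-Hochberg method, with a threshold of 0.05, among 3 libraries and in pairs. It compares libraries, not conditions, and assumes Poisson counts. It was tried on simulated Poisson counts for the comparison of 3 libraries, with 10016 genes. There it called 74% of genes changed 2-fold and 100% of those changed 4-fold in replicate 1, and 0.143% of unchanged genes. Because the simulated counts follow the model that the test assumes, these rates do not carry over to the real libraries. In those, 67.2% of genes were called. GC bins are 8 equal groups of genes of at least 10 CPM by GC content of the longest transcript. Alternatives were DESeq2 1.42.0 size factors, column totals, other filters, pseudocounts and lengths, the deposited log2 values, equal depth, GC adjustment and leaving out each library.

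The genes named are the 10 hosts, their opposite-strand exon partners, the 3 highest and the lowest of each comparison list by mean CPM, the 5 nearest profiles and snoRNAs of the hosts with a row. SLC3A2, ZBTB37, SNHG19, EPB41L4A-AS1 and DANCR fall outside this rule and were chosen after values were seen. Members and lists were chosen with earlier results of these data known. A gene that this rule also names is not reported here.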

Additional observations from a re-analysis of the deposited data

How the results depend on the processing

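Of the 10 host genes, 8 varied between libraries, and 8 or 9 did with DESeq2 size factors, column totals, other count minimums, a threshold of 0.01, equal depth or GC adjustment. The share of all tested genes called in these settings ran from 51% without a count minimum to 81.1% at a mean of at least 50 counts. In the latter SNHG12 was not tested, so the tally was 8 of 9. Leaving out 1 library gave 5 to 7, beside 33.8% to 56.2% of all genes. Of 109 single-gene outcomes under these alternatives, 100 stayed on their side of the threshold, 7 lost it and 2 gained it. All 7 losses came from leaving out a library: SNHG1 without replicate 1, SNHG5, SNHG7 and SNHG8 without replicate 2, and SNHG6, SNHG7 and SNHG16 without replicate 3. The 2 gains were SNHG12 with column totals (adjusted p = 0.0348, chi-square test) and with GC adjustment (adjusted p = 1.26e-04), beside 0.202 in the analysis as reported. The median member level was 167 CPM in the deposited log2 values, which use smaller library constants, and 105 to 140 CPM with 1 library left out, beside 125 CPM. The summed level was 1764 to 2121 CPM with 1 library left out. The tallies of pairs moved by less than 1.5 times under alternatives that were chosen after seeing the data. The number of neighbours beyond their spread was 4 to 6 with 1 library left out and 4 in each other setting. SNHG6 and SNHG5 led the order in every setting, while SNHG15 fell behind SNHG7 and SNHG12 with longest transcript lengths. GAS5 fell behind ZFAS1, and SNHG8 behind SNHG1, without replicate 1, SNHG15 behind SNHG7 without replicate 2, and ZFAS1 and SNHG8 behind SNHG1 without replicate 3. No paired analysis was possible because the labels give 1 group. Depth in replicates 2 and 3 limits SNHG7, SNHG12 and SNHG15, which had 20 to 45 counts there.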

Other observations

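Values of 3 other non-coding hosts, chosen after they were seen, are given here. SNHG19 had 18.4, 16.3 and 86.7 CPM in replicates 1, 2 and 3, so replicate 3 alone was high (adjusted p = 8.76e-38, chi-square test over the 3 libraries). EPB41L4A-AS1 was highest in replicate 2, with 29.8, 59.7 and 37.6 CPM. DANCR had 66.6, 61.0 and 62.1 CPM, and variation between libraries was not detectable at this depth (adjusted p = 0.724).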
